A study of Mus musculus with 20 samples.

Results

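The genes described here are 10 serotonin receptor genes, Htr1a, Htr1b, Htr1d, Htr2a, Htr2b, Htr2c, Htr4, Htr5b, Htr6 and Htr7, among 18820 genes measured on 20 microarrays. A gene was included where a probe set carried its symbol alone in the array's annotation, and each of the 10 was measured by 1 probe set. The RNA was from a pair of immortalised neuronal lines of mouse hypothalamus, mHypoE-46 (E46), which the labels call sensitive to serotonin, and mHypoA-2/12 (A2/12), which they call unresponsive. In all groups medium without serum was put on nearly confluent cells, serotonin was added 4 h later to the treated ones, and the exposure time was 24 h. There were 5 groups of 4 arrays: E46 controls (no serotonin), E46 at serotonin 1 µg/ml, E46 at serotonin 100 µg/ml, A2/12 at serotonin 100 µg/ml and A2/12 controls. Doses are those of the titles. The description field crosses them for the E46 serotonin arrays (100 where the title has 1, and 1 where it has 100), so the dose behind each E46 serotonin group is uncertain. Each line is a single cell line, and nothing in the labels states that arrays of 1 group are separate cultures. The p-values therefore measure only the spread between these arrays, which may be technical.

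Serotonin receptors sit in the cell membrane and, apart from the Htr3 ion channel, signal through G proteins. The products of the Htr1 genes and Htr5b couple to Gi/o proteins, which lower cyclic AMP. Those of Htr2a, Htr2b and Htr2c couple to Gq proteins, which activate phospholipase C and release calcium, and those of Htr4, Htr6 and Htr7 couple to Gs proteins, which raise cyclic AMP. In the hypothalamus serotonin acts on feeding circuits, where the Htr1b and Htr2c receptors are known for restraining food intake.

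Values are log2 expression levels, so a difference of 1 is a doubling. Any 2 of the 20 arrays correlated between 0.933 and 0.998. In 4 arrays the upper quartile of all values was under 8.2, namely E46 control replicate 1, E46 serotonin 1 replicates 1 and 3, and A2/12 control replicate 2. Although A2/12 is labelled unresponsive, 45.9% of all genes passed the test there at serotonin 100 (were called, at a limma adjusted p below 0.05), against 39.6% in E46. Neuron markers were partly present. Map2 averaged 8.64 at E46 serotonin 100 against 10.43 in E46 controls, and 7.70 at A2/12 serotonin 100 against 9.62 in A2/12 controls. Eno2 averaged 8.25 at E46 serotonin 100 against 8.05 in E46 controls, and 8.27 at A2/12 serotonin 100 against 8.94 in A2/12 controls. Stmn2 averaged 9.14 in A2/12 controls and 5.09 in E46 controls. Rbfox3, Snap25 and Elavl4 were below the background level in each group. Of 6 measured hypothalamus markers, the factor Nkx2-1 averaged 8.68 in E46 controls and 6.35 in A2/12 controls, and Otp 5.27 and 5.22. Npy, Nr5a1 and Sim1 were at most 0.13 above background in any group, and Pomc was below it in each group. Fibroblast and mesenchyme markers were measured well in both lines, with 6 of 7 above background in each group. They were lower with serotonin 100: their summed level was 50.2 to 55.1 at E46 serotonin 100 against 62.0 to 63.0 in E46 controls, and 54.2 to 58.5 at A2/12 serotonin 100 against 71.2 to 72.3 in A2/12 controls. The summed level of 8 neuron markers was 41.7 to 42.9 at E46 serotonin 100 against 43.9 to 45.0 in E46 controls. It was 43.5 to 44.0 at A2/12 serotonin 100 against 48.9 to 49.9 in A2/12 controls. Of these 8, 2 were called lower in E46 and 4 in A2/12, where 19.3% and 21.1% of all genes were. Their median change was only -0.08 in E46 and was -0.40 in A2/12. The summed level of 6 astrocyte markers was 29.6 to 30.5 at E46 serotonin 100 against 34.1 to 34.7 in E46 controls. It was 25.6 to 26.8 at A2/12 serotonin 100 against 28.5 to 28.7 in A2/12 controls. Of these 6, 4 were called lower in E46 and 3 in A2/12, where 19.3% and 21.1% of all genes were. Gfap and Aqp4 were below background in every group. Markers of microglia and macrophages were high on 1 array, A2/12 control replicate 4, where 6 of them summed to 33.8, against 26.9 to 27.6 on the other 3 A2/12 controls and at most 29.3 on any other array. Csf1r was at 6.50 and Cd68 at 8.55 on that array, against at most 4.15 and 7.29 on the other 3. Without it, Htr2a changed by 1.47 in A2/12 (adjusted p = 1.51e-09), Htr2b by 0.41 (0.0107) and Htr1d by -0.24, which was no longer called (0.129). The part of the other markers in the receptor results was not tested. In such bulk RNA, fewer cells of a type and less RNA per cell cannot be told apart.

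Most of the receptor genes were close to background. The background level of a group was the 95th percentile over 1168 odorant and pheromone receptor genes, which these cells have little reason to express. It was 4.38 in E46 controls, 4.67 at E46 serotonin 1, 4.45 at E46 serotonin 100, 4.35 at A2/12 serotonin 100 and 4.35 in A2/12 controls. By group mean, 6 of the 10 genes were above it in E46 controls, 1 at E46 serotonin 1, 3 at E46 serotonin 100, 4 at A2/12 serotonin 100 and 6 in A2/12 controls. The background of E46 serotonin 1 was itself the highest, which lowers its count. Htr1a, Htr2c and Htr7 were above the background of their own array in 0 of 20 arrays. Htr2b was above it in 1 array, Htr5b in 5, Htr1d in 7, Htr6 in 11, Htr4 in 12, Htr1b in 14 and Htr2a in 17. Log2 changes of genes near background are compressed toward 0.

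**Figure D1:**
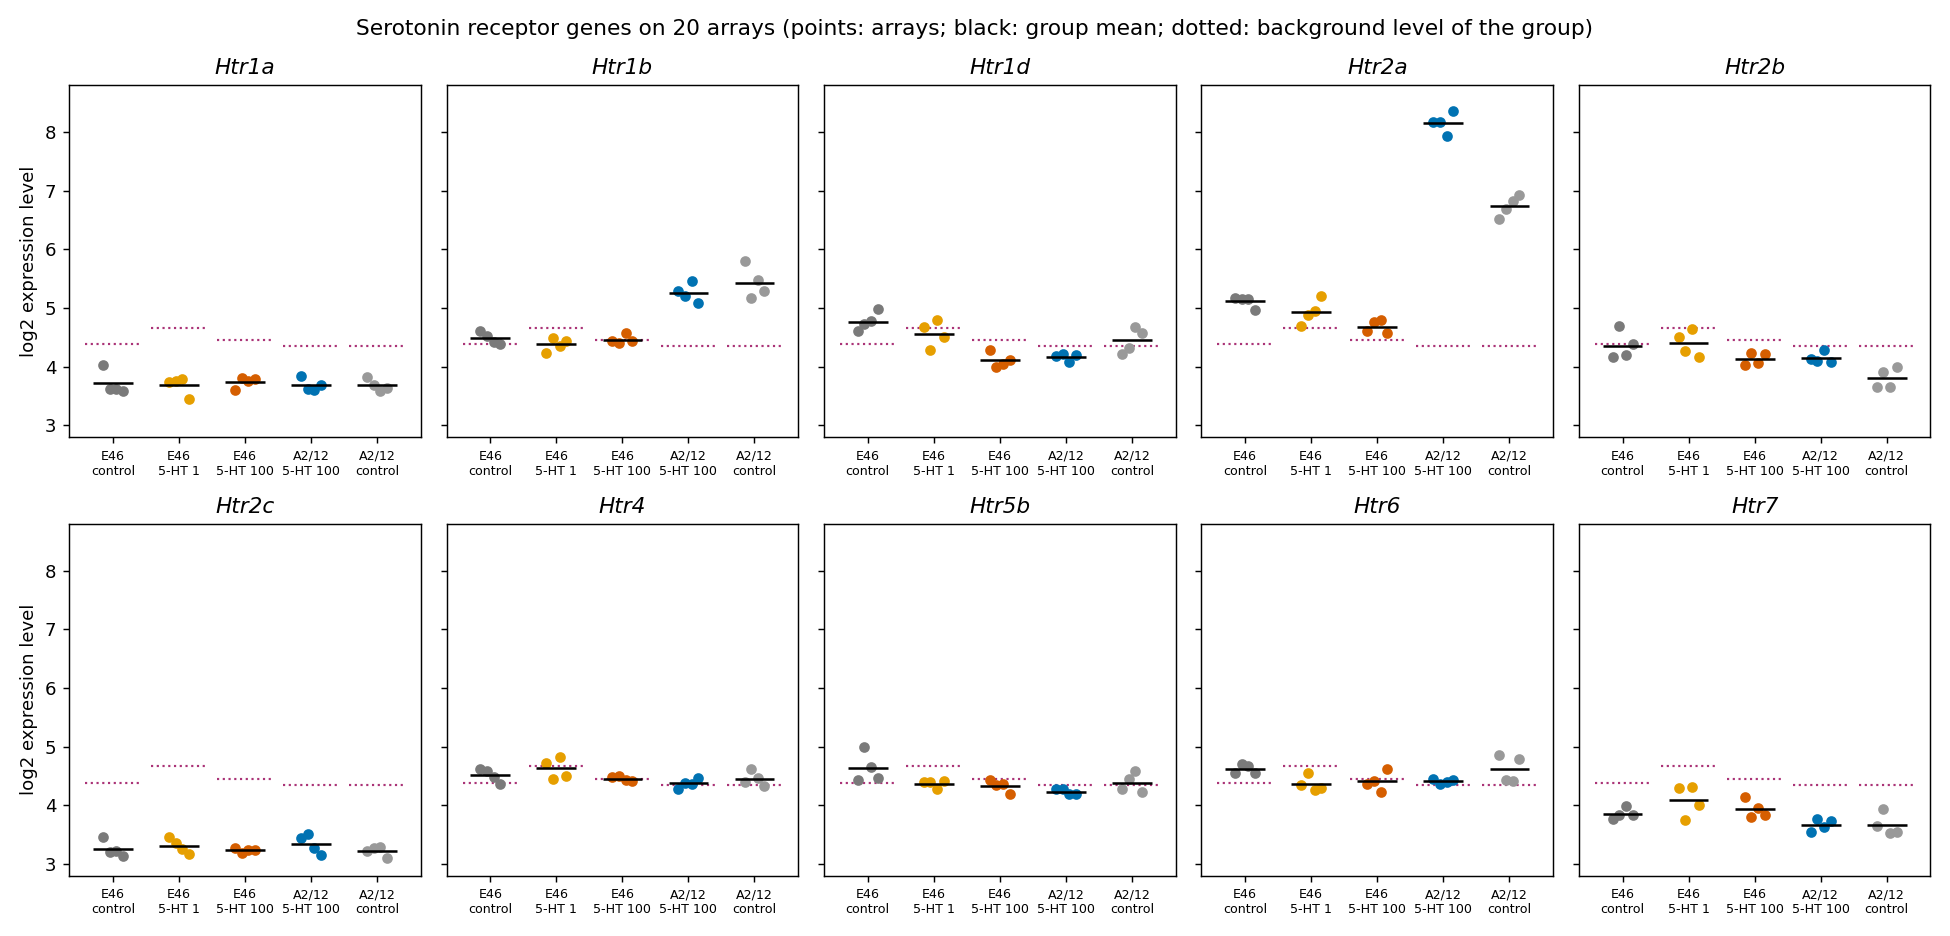
Log2 expression level (vertical axis) of the 10 serotonin receptor genes in the 5 groups (horizontal axis), with a point per array, a black bar at each group mean and a dotted line at the group's background level. Htr2a in A2/12 cells, at 6.52 or higher on all 8 arrays, and Htr1b in A2/12 cells, at 5.08 or higher, stand clear of the dotted lines.

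Of the 10 genes, 8 had a promoter in the RefSeq table of build GRCm38.p6, and Htr4 and Htr5b did not. The promoters of Htr2a, Htr1b and Htr1d are shown because these genes had the 3 widest ranges of group means over the 5 groups, 3.47 for Htr2a, 1.05 for Htr1b and 0.66 for Htr1d. Each sequence is the 250 bases before the annotated start, 5′ to 3′ on the gene's strand. Htr2a lies on the plus strand at chr14:74640624-74640873, Htr1b on the minus strand at chr9:81633833-81634082, and Htr1d on the plus strand at chr4:136423274-136423523. Capitals mark a GC box (GGGCGG on either strand), the site bound by Sp1-type factors.
Htr2a: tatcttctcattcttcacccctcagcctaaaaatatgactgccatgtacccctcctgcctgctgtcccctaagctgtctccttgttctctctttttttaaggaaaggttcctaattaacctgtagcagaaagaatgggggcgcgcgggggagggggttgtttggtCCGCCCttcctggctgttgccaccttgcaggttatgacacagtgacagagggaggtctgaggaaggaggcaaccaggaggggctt
Htr1b: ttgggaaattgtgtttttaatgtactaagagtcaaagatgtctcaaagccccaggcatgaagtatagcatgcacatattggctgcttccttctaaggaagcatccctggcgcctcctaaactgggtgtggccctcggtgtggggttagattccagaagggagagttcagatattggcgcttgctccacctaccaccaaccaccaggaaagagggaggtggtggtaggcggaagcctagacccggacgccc
Htr1d: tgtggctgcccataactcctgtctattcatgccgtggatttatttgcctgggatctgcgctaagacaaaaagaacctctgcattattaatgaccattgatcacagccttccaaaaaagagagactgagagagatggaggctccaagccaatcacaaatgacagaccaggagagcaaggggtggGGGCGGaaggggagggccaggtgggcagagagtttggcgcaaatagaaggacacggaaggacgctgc
A GC box was found in the promoters of Htr2a, 85 bases before the start on the opposite strand, and Htr1d, 67 bases before it, and none was found for Htr1b. It occurs in 32.7% of the 32851 promoters of the same length, so these matches are common. The other motifs searched on both strands, with no overlap between them in these windows, were a TATA box (TATAAA, in 12.4% of promoters), the core of the cyclic AMP response element (TGACG, in 17.8%), an AP-1 element (TGANTCA, in 6.75%) and an ATF4 composite element (TGATGNAA, in 3.45%). None of these occurred in the 3 windows, from which nothing follows about the factors.

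Htr2a, the Gq-coupled receptor that hallucinogens act on, had the largest change of the 10 genes with serotonin, in A2/12. In E46 its change was of the opposite sign, near background, and smaller than that of Htr1d (-0.66). Htr2a was 2.66-fold higher in A2/12 at serotonin 100 than in A2/12 controls, and 1.35-fold lower in E46 at serotonin 100 than in E46 controls. The A2/12 serotonin 100 arrays were at 8.17, 8.16, 7.92 and 8.35, against 6.52, 6.69, 6.83 and 6.92 in A2/12 controls. All 4 treated arrays lay above all 4 controls, with 1.01 between the groups. The change was 1.41 ± 0.11 (SE, n = 4 arrays each, 95% confidence interval 1.18 to 1.64) by limma, with a Benjamini-Hochberg adjusted p of 5.97e-10. It was the 278th largest increase of 18820 genes. In E46 the serotonin 100 arrays were at 4.61, 4.76, 4.79 and 4.57, against 5.16, 5.16, 5.16 and 4.97 in controls. These groups did not overlap either, but they lay close to the background, with 3 of 4 serotonin 100 arrays and 4 of 4 controls above that of their own array. The change was -0.43 ± 0.11 (SE, n = 4 arrays each; limma adjusted p = 0.00292).

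The scan names give a position number and a row letter for each array. In either line, position 5 held 1 serotonin 100 array and 2 controls, position 7 held 2 and 1, and position 9 held 1 and 1. Between control lines, position 5 held 2 arrays of each line and positions 7 and 9 held 1 of each. Values within a position therefore rest on single arrays and are given without a test. For Htr2a they were 1.21, 1.57 and 1.33 in A2/12 at positions 5, 7 and 9, and -0.28, -0.56 and -0.40 in E46. Groups largely follow the row letters. Only row F in A2/12 and row B in E46 held both serotonin 100 arrays and a control, 2 and 1 in each, so a fit with the row letter as a block rests on A2/12 control replicate 4 and E46 control replicate 4 alone. For Htr2a that fit gave 1.25 in A2/12 (adjusted p = 5.33e-05) and -0.28 in E46, where the call was lost (adjusted p = 0.341). A2/12 control replicate 4 was the array with high microglia and macrophage markers. E46 control replicate 4, at 4.97, was the lowest of its group, which had 5.16 on the other 3 arrays. Row and cell line cannot be told apart, since no row held both lines.

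The difference between the lines' responses was tested directly. For Htr2a it was -1.84 ± 0.15 (E46 response minus A2/12 response, limma adjusted p = 1.61e-08), the 74th most negative of 18820. It was -1.48, -2.13 and -1.73 within positions 5, 7 and 9, and -1.53 with the row letter as a block (0.00102). Of all genes, 186 (0.988%) were called lower in E46 and higher in A2/12, and 11 of them, Htr2a included (0.0584%), rose in A2/12 by at least as much as Htr2a. Under the other dose label the E46 arrays titled 1 take the place of those titled 100, and Htr2a in E46 then gives -0.18 (adjusted p = 0.416). The difference of responses of Htr2a was then -1.59 (limma adjusted p = 4.24e-08) and was still called.

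**Figure D2:**
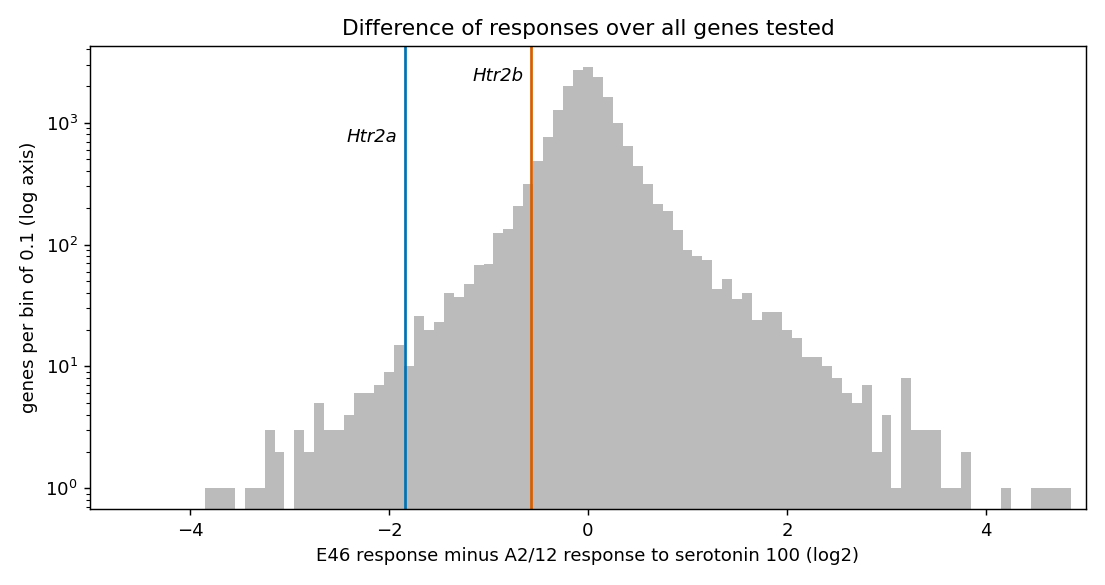
Number of genes (vertical log axis) per bin of 0.1 of the E46 response minus the A2/12 response to serotonin 100 (horizontal axis, log2), over all genes tested, with lines at Htr2a and Htr2b. Htr2a, at -1.84, lies in the left tail and Htr2b, at -0.57, lies on the left flank.

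The level of Htr2a followed the order A2/12 serotonin 100 (mean 8.15), A2/12 control (6.74), E46 control (5.11), E46 serotonin 1 (4.93) and E46 serotonin 100 (4.68). The arrays of neighbouring groups overlapped between E46 control and E46 serotonin 1 and between E46 serotonin 1 and E46 serotonin 100, and not elsewhere in that order. E46 controls were below A2/12 controls by 1.63 on the log2 scale, a difference of -1.63 ± 0.11 (SE, n = 4 arrays each; limma adjusted p = 7.69e-11). Among 12745 genes compared over the 20 arrays, those whose pattern was nearest to Htr2a by root mean square difference were Phf11d and Akr1c18 (0.27 each) and Adamts4 (0.29). In A2/12 serotonin 100 against control they changed by 1.26, 1.63 and 1.39. In E46 serotonin 100 against control, Phf11d changed by 0.14, Akr1c18 by 0.06 and Adamts4, a protease of the extracellular matrix, by -0.70. Htr2a had a root mean square of 1.33 around its own mean.

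Htr2b, a Gq-coupled receptor best known from heart valve and gut, had a difference of responses of the same sign as Htr2a, at low levels. The A2/12 serotonin 100 arrays were at 4.13, 4.10, 4.28 and 4.08, against 3.65, 3.91, 3.66 and 3.99 in A2/12 controls. The groups did not overlap, yet every one of these 8 arrays was below the background of its own array. The change was 0.35 ± 0.12 (SE, n = 4 arrays each; limma adjusted p = 0.0196), and the call was lost without A2/12 control replicate 1 (0.30, adjusted p = 0.0671), without A2/12 control replicate 3 (0.30, 0.0669), without A2/12 serotonin 100 replicate 3 (0.30, 0.0639) and with the row letter as a block (0.13, 0.768). In E46 the serotonin 100 arrays were at 4.04, 4.22, 4.06 and 4.22, against 4.16, 4.69, 4.19 and 4.38 in controls, which overlapped. That change was -0.22 ± 0.12 (limma adjusted p = 0.156). The difference of responses was -0.57 ± 0.17 (limma adjusted p = 0.0164), and it was not called with the row letter as a block (-0.38, adjusted p = 0.625) or with the other dose label (-0.31, 0.157). Within positions 5, 7 and 9, the A2/12 change of Htr2b was 0.46, 0.19 and 0.44 and the difference of responses -0.67, -0.76 and -0.41. In controls, E46 was above A2/12 by 0.56 ± 0.12 (limma adjusted p = 0.00063), with no overlap. The nearest patterns to Htr2b over the 20 arrays were those of Immp1l, Mtap and Tmx4, at root mean square differences of 0.15 to 0.16. Htr2b had a root mean square of only 0.26 around its own mean.

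Htr2c, the third Gq-coupled receptor of the family, was between 3.09 and 3.52 on all 20 arrays, below background on each. Its changes were -0.02 at E46 serotonin 100 and 0.13 at A2/12 serotonin 100, neither called (limma adjusted p = 0.905 and 0.267).

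Of the Gi/o-coupled receptors, Htr1d, an autoreceptor on nerve endings, fell by 0.66 in E46 at serotonin 100. The serotonin 100 arrays were at 4.27, 3.99, 4.05 and 4.12, against 4.60, 4.72, 4.78 and 4.97 in E46 controls. All 4 controls and none of the treated arrays were above the background of their own array, and the groups did not overlap. The change was -0.66 ± 0.11 (SE, n = 4 arrays each; limma adjusted p = 6.01e-05), or 1.58-fold, and it was called in each of 34 alternative settings other than the single positions and the other dose label, with values of -0.84 to -0.54. Within positions 5, 7 and 9 it was -0.74, -0.52 and -0.79. With the other dose label it was -0.21 (adjusted p = 0.373).

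In A2/12 the Htr1d arrays were at 4.18, 4.21, 4.08 and 4.19 with serotonin 100, against 4.22, 4.31, 4.68 and 4.57 in controls. The groups were 0.0085 apart at their nearest arrays. The change of -0.28 ± 0.11 was called (limma adjusted p = 0.0477), but the call was lost in 19 of 34 alternatives, among them 12 of the 20 that left out 1 array. Without A2/12 control replicate 3 it was -0.20 (adjusted p = 0.182), without A2/12 control replicate 4, the array with high macrophage markers, it was -0.24 (0.129), and with each array centred on its median it was -0.12 (0.500). Within positions 5, 7 and 9 it was -0.32, -0.12 and -0.47. The difference between the lines' responses, -0.38 ± 0.16, was not called (limma adjusted p = 0.101). Htr1d was 1 of 2411 genes (12.8% of all) called lower in both lines. In controls, E46 was above A2/12 by 0.32 ± 0.11 (limma adjusted p = 0.0272), with overlapping arrays, and that call was lost without E46 control replicate 3 (0.32, 0.0534), E46 control replicate 4 (0.25, 0.103), A2/12 control replicate 1 (0.25, 0.103) or A2/12 control replicate 2 (0.28, 0.082). The nearest patterns to Htr1d over the 20 arrays, at 0.15 to 0.16, were those of Capzb, Plod1 and Pdia6. Capzb is an actin capping subunit, Plod1 a collagen lysyl hydroxylase and Pdia6 a protein disulfide isomerase. Htr1d had a root mean square of 0.29 around its own mean.

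Htr1b, the other autoreceptor on nerve endings, marked the lines but was not called for serotonin. The A2/12 serotonin 100 arrays were at 5.29, 5.21, 5.45 and 5.08, against 5.80, 5.17, 5.47 and 5.28 in A2/12 controls. The groups overlapped, and the change was -0.17 ± 0.11 (limma adjusted p = 0.242). The E46 arrays were at 4.61, 4.52, 4.43 and 4.38 in controls, at 4.23, 4.49, 4.36 and 4.44 with serotonin 1, and at 4.44, 4.39, 4.57 and 4.43 with serotonin 100. All 12 lay below all 8 A2/12 arrays. In controls E46 was below A2/12, at -0.94 ± 0.11 (SE, n = 4 arrays each; limma adjusted p = 3.93e-07), a 1.92-fold difference. Within positions 5, 7 and 9 it was -1.04, -0.65 and -1.04. The nearest patterns were those of Epn1, an endocytic adaptor, Sema6b, a semaphorin, and Prrc2a, at 0.11 to 0.14. Htr1b had a root mean square of 0.47 around its own mean.

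Htr1a was between 3.44 and 4.03 on all 20 arrays, and its group means spanned 0.06. Its changes were 0.03 at E46 serotonin 100 (95% confidence interval -0.18 to 0.23) and 0.01 at A2/12 serotonin 100 (-0.20 to 0.21). Htr5b, a Gi-coupled receptor of rodents that is disrupted in humans, was at 4.43, 4.34, 4.37 and 4.20 at E46 serotonin 100, against 4.44, 4.99, 4.65 and 4.46 in E46 controls. The groups were adjacent without overlap, and E46 control replicate 2 was the highest. The change of -0.30 ± 0.10 was called (limma adjusted p = 0.0226), but leaving out E46 control replicate 2 ended the call (-0.18, adjusted p = 0.118), and it was also lost without E46 serotonin 100 replicate 4 (-0.26, 0.0801), with median centring (-0.18, 0.250), with quantile normalization (-0.23, 0.0708) and with the row letter as a block (-0.07, 0.856). Within positions 5, 7 and 9 it was -0.08, -0.67 and -0.31, where the control at position 7 is replicate 2 alone. In A2/12 the change of Htr5b was -0.15 ± 0.10 and was not called (limma adjusted p = 0.264). The nearest patterns to Htr5b were those of Spaca9, Spata6 and Tmem59l, at 0.11 to 0.12. Htr5b had a root mean square of only 0.18 around its own mean.

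Of the Gs-coupled receptors, Htr6 had the larger changes and none was called. It was at 4.37, 4.42, 4.23 and 4.62 at E46 serotonin 100, against 4.56, 4.71, 4.67 and 4.54 in E46 controls, and the groups overlapped. The changes were -0.21 ± 0.10 in E46 (limma adjusted p = 0.110) and -0.22 ± 0.10 in A2/12 (limma adjusted p = 0.0883). Htr4 ranged from 4.28 to 4.83 over the 20 arrays, with changes of -0.06 in E46 and -0.08 in A2/12 at serotonin 100. Htr7 ranged from 3.53 to 4.31, with changes of 0.08 and 0.004 in the same comparisons. None of those 4 changes was called (limma adjusted p between 0.544 and 0.984).

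**Figure D3:**
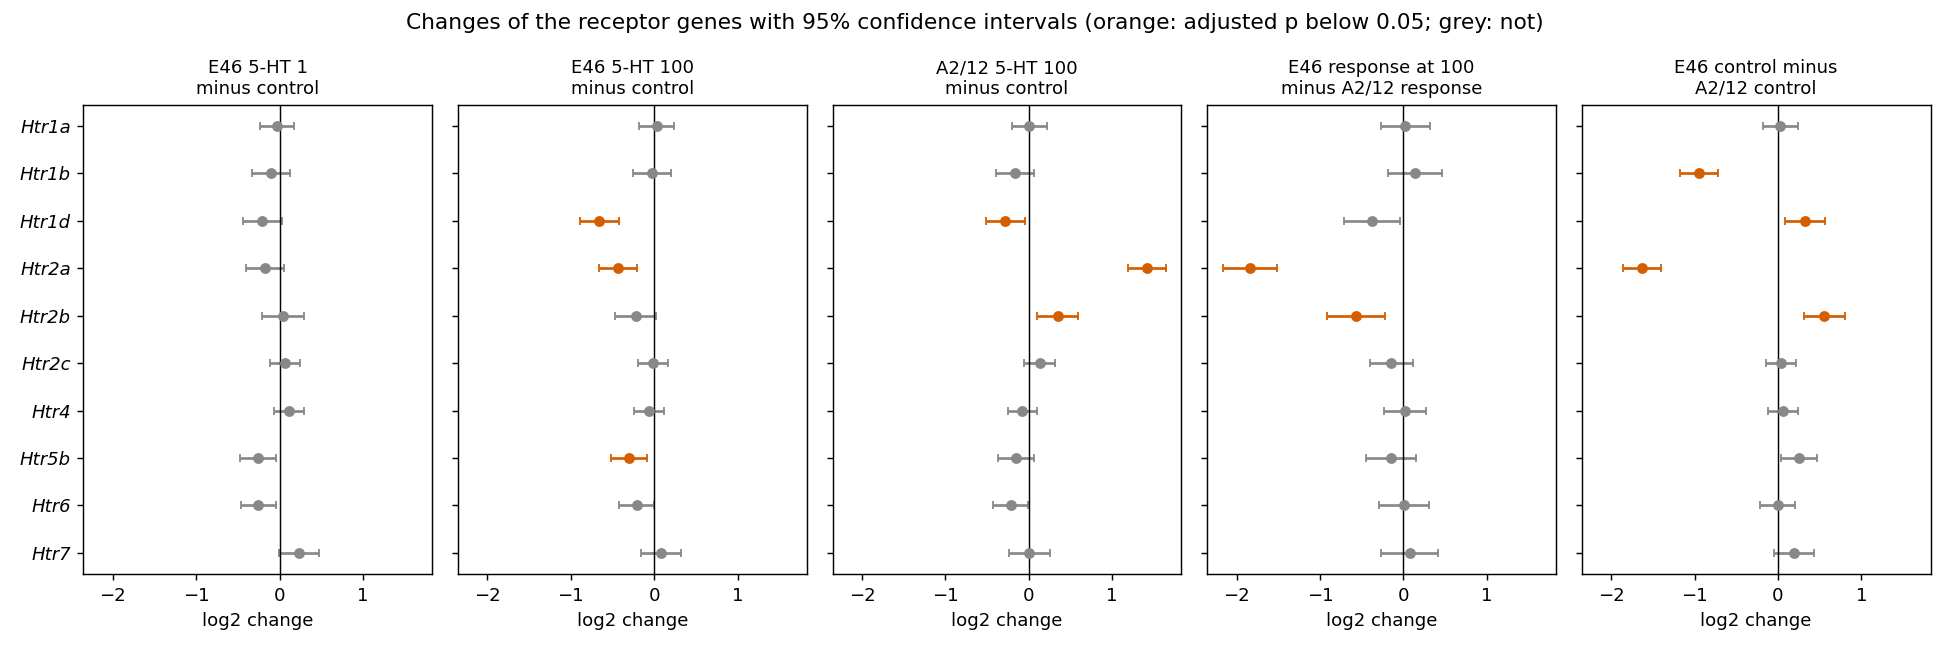
Log2 change (horizontal axis) of each receptor gene (vertical axis) in 5 comparisons, as a point with its 95% confidence interval, orange where the adjusted p is below 0.05 and grey where it is not. Htr2a stands out at 1.41 in A2/12, -1.84 for the difference of responses and -1.63 between control lines, while the panel for E46 at serotonin 1 holds no orange point.

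Counted together, the receptor genes were called at shares close to or below those of all genes. In E46 at serotonin 100, 3 of 10 were called, all lower, where 39.6% of the 18820 genes were called, 20.3% higher and 19.3% lower. The same 3 had no overlap between groups, against 40.4% of all genes. In A2/12 at serotonin 100, 3 of 10 were called, Htr2a and Htr2b higher and Htr1d lower, where 45.9% of all genes were called, 24.8% higher and 21.1% lower. Those 3 also had no overlap, against 43.3% of all genes. For the difference of responses 2 of 10 were called, both negative, where 22.0% of all genes were called, 11.1% positive and 10.9% negative. Between control lines 4 of 10 were called, Htr1b and Htr2a lower in E46 and Htr1d and Htr2b higher, where 39.1% of all genes were called, 18.1% lower and 21.1% higher. Of these 4, 3 had no overlap, against 35.6% of all genes. The members' shares were near those of all genes in each comparison. The 2 serotonin comparisons at 100 used separate controls, whereas each shares its controls with the difference of responses and the comparison of lines.

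With median centring the changes of all genes shifted by 0.12 in E46 and 0.16 in A2/12 at serotonin 100. The share of calls that were higher was then 66.4% in E46 and 68.8% in A2/12, where the deposited values gave 51.4% and 54.0%. Under it Htr2a changed by 1.57 in A2/12 and -0.31 in E46, and Htr1d by -0.54 in E46.

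At E46 serotonin 1, no receptor gene was called. Only 2 of 18820 genes were called (0.0106%), Boc lower and the small nucleolar RNA Snord22 higher, named after their values were seen, while 2993 genes had an unadjusted p under 0.05. Htr5b was at 4.40, 4.39, 4.28 and 4.41 at serotonin 1, against 4.44, 4.99, 4.65 and 4.46 in E46 controls, and was the only receptor gene without overlap, where 6.39% of all genes had none. Its change was -0.26 ± 0.10 (limma adjusted p = 0.246). Htr6 changed by -0.26 ± 0.10 (0.247), Htr1d by -0.21 ± 0.11 (0.373) and Htr2a by -0.18 ± 0.11 (0.416). Htr7 changed by 0.23 ± 0.12 (limma adjusted p = 0.339), and its 2 highest serotonin 1 arrays, replicates 1 and 3 at 4.30 and 4.31, were those with a low upper quartile.

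The other measured serotonin receptor genes were Htr1f, Htr3a, Htr3b and Htr5a. All 4 had group means below background in every group, and none was called in any of the 5 comparisons. Htr3b, a subunit of the serotonin-gated ion channel, had the smallest adjusted p among them at E46 serotonin 1, with a change of 0.35 ± 0.11 (limma adjusted p = 0.207). It was called there without E46 serotonin 1 replicate 2 (0.47, adjusted p = 0.0331), and it was 0.12 (0.996) without the 4 arrays of low upper quartile.

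Genes that act with the receptors, such as G proteins, effector enzymes and arrestins, were mostly lower with serotonin 100 where they were called. Of 57 listed, 52 were measured. In A2/12 at serotonin 100, 9 were called higher and 27 lower (69.2% called, against 45.9% of all genes), and their median change was -0.25, against 0.002 over all genes. In E46 at serotonin 100, 5 were called higher and 20 lower (48.1%, against 39.6%), with a median of -0.13 against -0.004. At E46 serotonin 1 none was called by limma, with a median of -0.08 against -0.04. The shares of all genes include many genes near background. Of the 13480 genes above background in at least 4 arrays, 7544 were called in E46 and 8622 in A2/12 at serotonin 100. In E46 that share is larger than in the lists, and in A2/12 it is smaller. The listed genes were not filtered in this way. The fibroblast and mesenchyme markers fell in the same comparisons, and their part here was not tested. Of 7, 5 were called lower in A2/12 and 6 in E46, where 21.1% and 19.3% of all genes were. Of the 52 genes, the difference of responses was called positive for 15 and negative for 4 (36.5%, against 22.0%). Of all genes, 11.1% were called positive and 10.9% negative. In E46 controls Gnai1 and Gna14 were only 0.08 and 0.37 above background, against 5.23 and 4.32 in A2/12 controls. A fall in E46 as large as in A2/12 could not have been measured for either gene.

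**Figure D4:**
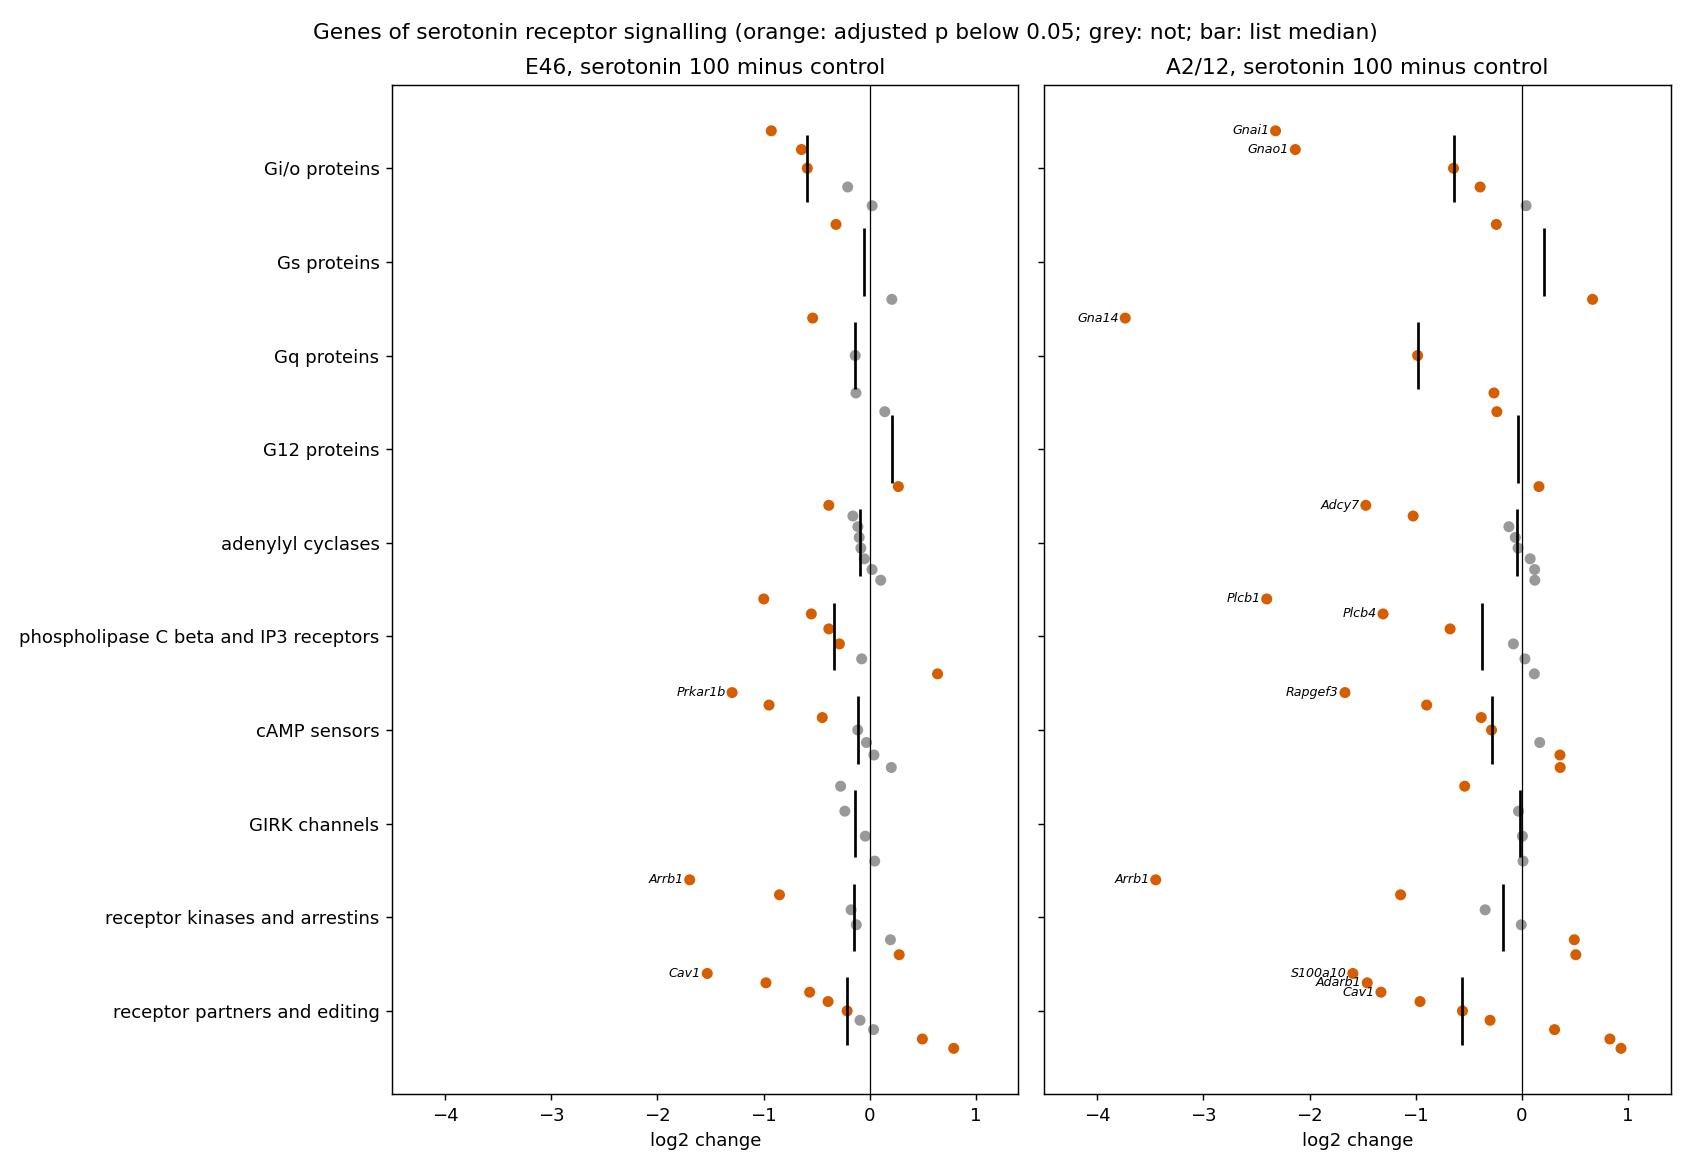
Log2 change with serotonin 100 (horizontal axis) of 52 genes in 10 lists (vertical axis) in E46 (left) and A2/12 (right), with orange points for an adjusted p below 0.05, grey points for others and a bar at each list median. Arrb1 lies far left in both panels, at -1.70 in E46 and -3.45 in A2/12, and Gna14 at -3.74 in A2/12.

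The Gq proteins, which carry the signal of the Htr2 receptors, had 3 of 3 members called lower in A2/12, where 21.1% of all genes were called lower, and 1 of 3 in E46, where 19.3% were. Gna14 was at 5.32, 5.06, 4.65 and 4.72 at A2/12 serotonin 100, against 8.79, 8.29, 8.66 and 8.96 in A2/12 controls. The groups lay far apart, and the treated arrays were close to those of E46, which lay between 4.48 and 4.94. The change of Gna14 was -3.74 ± 0.14 in A2/12 (limma adjusted p = 2.58e-14) and -0.14 ± 0.14 in E46 (0.521), and the difference of responses was 3.60 ± 0.20 (1.01e-10). In E46 the group means of Gna14 were only 0.12 to 0.37 above background, where log2 changes are compressed toward 0. A fall there as large as the one in A2/12 could not have been measured. An unequal response therefore cannot be told apart from the low level in E46. Gnaq changed by -0.98 ± 0.08 in A2/12 and by -0.54 ± 0.08 in E46, both called, and Gna11 by -0.26 ± 0.06 and -0.13 ± 0.06, the second not called (limma adjusted p = 0.0958). Of the phospholipase C beta genes, whose products Gq proteins activate, Plcb1 and Plcb4 were lower in both lines. Plcb1 was at 5.13, 4.94, 4.56 and 4.79 at A2/12 serotonin 100, against 7.13, 7.09, 7.37 and 7.44 in A2/12 controls, a change of -2.40 ± 0.15. In E46 it changed by -1.0 ± 0.15, and Plcb4 by -1.31 ± 0.10 in A2/12 and -0.55 ± 0.10 in E46, all called. Of the receptors for inositol trisphosphate, which release calcium, Itpr2 rose by 0.64 ± 0.12 in E46 and gave 0.03 ± 0.12 in A2/12, a difference of responses that was called (limma adjusted p = 0.0133), while Itpr3 fell in both (-0.68 in A2/12 and -0.39 in E46).

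The Gi/o proteins, which serve the Htr1 and Htr5b receptors, had 4 of 5 members called lower in A2/12 and 3 of 5 in E46, against 21.1% and 19.3% of all genes. Gnai1 was at 7.50, 7.27, 7.03 and 7.26 at A2/12 serotonin 100, against 9.45, 9.71, 9.62 and 9.55 in A2/12 controls. It changed by -2.32 ± 0.11 there (limma adjusted p = 2.76e-13). In E46 its group means were within 0.20 of background, and E46 controls were below A2/12 controls, at -5.12 ± 0.11 (limma adjusted p = 6.55e-19). Gnao1, the main G protein of brain membranes, changed by -2.13 ± 0.07 in A2/12 and -0.93 ± 0.07 in E46, and Gnai2 by -0.64 ± 0.06 in each. The GIRK channel gene Kcnj3, a potassium channel subunit opened by Gi/o proteins, was called in A2/12 alone (-0.54 ± 0.10), and its difference of responses was not called (0.30 ± 0.15, limma adjusted p = 0.163). Kcnj3 was 0.28 above background in A2/12 controls and below it in every other group. The other 3 GIRK genes were below background in every group and were not called in either line.

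On the Gs and cyclic AMP side the lines differed by gene. Gnas fell in both lines (-0.24 in A2/12 and -0.32 in E46), and Gnal, the olfactory Gs protein, rose by 0.67 ± 0.09 in A2/12, where its mean of 4.30 was still below background. Among adenylyl cyclases, which make cyclic AMP, Adcy7 changed by -1.47 ± 0.13 in A2/12 and -0.39 ± 0.13 in E46, and Adcy9 by -1.02 ± 0.12 in A2/12, while 6 of 8 were not called in A2/12 and 7 of 8 in E46. Adcy1, Adcy2, Adcy5 and Adcy8, among those not called, were below background in every group. Rapgef3, a cyclic AMP sensor also called Epac, fell in both lines (-1.67 in A2/12 and -0.95 in E46). Prkar1b, a regulatory subunit of protein kinase A, was at 7.80, 7.41, 7.51 and 7.58 at E46 serotonin 100, against 8.82, 8.81, 8.88 and 8.97 in E46 controls. It changed by -1.30 ± 0.09 in E46 and 0.17 ± 0.09 in A2/12, and the difference of responses was -1.46 ± 0.12 (limma adjusted p = 1.8e-08).

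**Figure D5:**
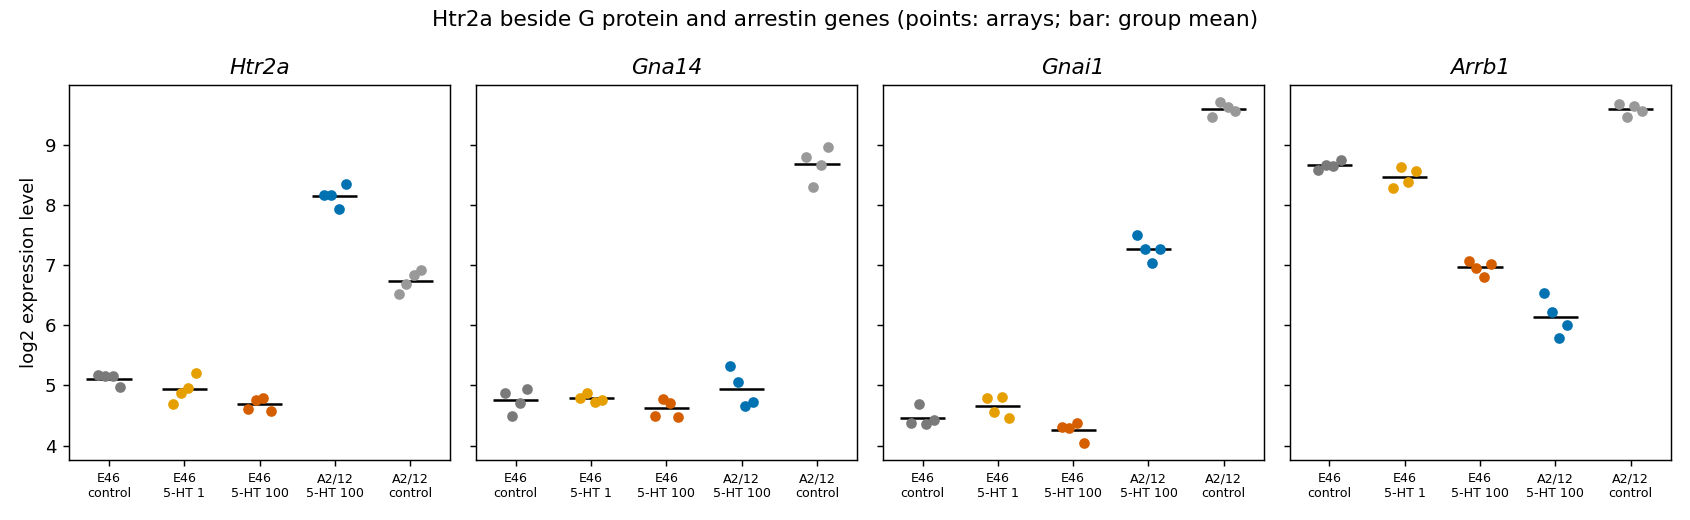
Log2 expression level (vertical axis) of Htr2a, Gna14, Gnai1 and Arrb1 in the 5 groups (horizontal axis), with a point per array and a bar at each group mean, to be read within a panel. In A2/12, Htr2a is higher with serotonin 100 and the other 3 genes are lower, with Gna14 down to the level of the E46 groups.

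Among regulators of the receptors, the arrestin genes moved in opposite directions. Arrb1, an arrestin that ends receptor signalling, was at 6.54, 6.21, 5.78 and 6.0 at A2/12 serotonin 100, against 9.68, 9.45, 9.64 and 9.56 in A2/12 controls. In E46 it was at 7.07, 6.95, 6.80 and 7.01 with serotonin 100, against 8.58, 8.66, 8.65 and 8.74 in controls. It fell by 3.45 in A2/12 and 1.70 in E46, with no overlap in either. Its relative Arrb2 changed by 0.49 ± 0.09 in A2/12 and 0.28 ± 0.09 in E46, both called higher. The receptor kinase gene Grk5 fell in both lines (-1.14 in A2/12 and -0.85 in E46), and Grk6 rose in A2/12 by 0.51 ± 0.09.

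Of 9 receptor partners and editing enzymes, 3 were called higher and 6 lower in A2/12, where 24.8% and 21.1% of all genes were. In E46, 2 were called higher and 5 lower, where 20.3% and 19.3% of all genes were. S100a10, the p11 protein that binds Htr1b and Htr4 receptors, changed by -1.59 ± 0.10 in A2/12 and -0.98 ± 0.10 in E46. Cav1, the caveolin that binds the Htr2a receptor, changed by -1.33 ± 0.09 in A2/12 and -1.53 ± 0.09 in E46. Jak2, a kinase that associates with the Htr2a receptor, was at 9.26, 9.25, 9.01 and 9.23 at A2/12 serotonin 100, against 7.94, 8.24, 8.37 and 8.46 in A2/12 controls. It rose by 0.93 ± 0.10 there and gave 0.04 ± 0.10 in E46, with a difference of responses of -0.90 ± 0.15 (limma adjusted p = 8.67e-05). Adar, an editing enzyme that acts on the Htr2c transcript, rose by 0.83 ± 0.09 in A2/12 and 0.79 ± 0.09 in E46, and Adarb1, the other such enzyme, fell by 1.46 in A2/12 and 0.21 in E46. Htr2c itself was below background throughout, so its editing could not be followed here.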

How the data were processed

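Total RNA of 20 samples was measured on 1-colour gene arrays. The deposited log2 values come from RMA, per the submitters' processing notes, in a version the sources used here do not state. By its construction RMA subtracts background, equalises arrays and gives 1 value per probe set, so a change common to most genes is reduced. No detection calls were used.

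Of 35556 probe sets, 21218 had 1 symbol in the array annotation, 1881 several and 12457 none, and 21185 were matched by Entrez ID. For 1386 genes with several, the set with the highest mean was used. The model, in limma 3.58.1 (R 4.3.3), had a mean for each of the 5 groups, which leaves 15 residual degrees of freedom. The p-values were Benjamini-Hochberg adjusted over 18820 genes, with calls below an adjusted p of 0.05. Precision is limited by the 4 arrays per group (median standard error 0.100 for the E46 change at serotonin 100). The scripts were checked on simulated data. Promoters came from RefSeq. Figures used matplotlib 3.10.9 under Python 3.11.15.

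The genes, lists and tests were chosen with earlier results of these data known. Named signalling genes are up to 4 of each list with the smallest adjusted p in the comparison described, and genes set beside the receptors. Nearest patterns were taken among 12745 genes above background in at least 4 arrays, leaving out small RNAs, odorant and pheromone receptor genes and provisional names. Alternatives are given below. The row letter and the single position numbers were added after the data were seen.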

Additional observations from a re-analysis of the deposited data

Results flagged for a closer look

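In 3 of 50 groups of 4 arrays, 1 array stood apart from the other 3 by Dixon's test at 95%, which chance gives in about 1 of 20 groups. Htr1a was at 4.03 in E46 control replicate 1, an array with a low upper quartile. Htr2a was at 4.97 in E46 control replicate 4, below 5.16 in the other 3. Htr5b was at 4.28 in E46 serotonin 1 replicate 3, also an array with a low upper quartile. The response to serotonin 100 differed between the lines for Htr2a, by -1.84 (E46 minus A2/12), and for Htr2b, by -0.57, each by the test of the difference itself.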

How the results depend on the processing

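The changes of the 10 receptor genes were recomputed under the alternatives, giving 1850 values. Of these, 1696 kept their side of the threshold and direction, or stayed within the spread between arrays, 66 calls were lost, 25 were gained, 63 uncalled values moved by more than that spread and 0 called values turned their direction. An uncalled value has no direction, and 133 of them changed sign. The single positions and the other dose label were kept out of the following counts of settings. The calls of Htr2a in A2/12 (34 settings), for the difference of responses (33) and between control lines (32) held in every setting counted. So did those of Htr1d in E46 (34) and Htr1b between lines (32). With the other dose label, the difference of responses of Htr2a was still called (-1.59, limma adjusted p = 4.24e-08). Htr1d in E46 was not called with that label (-0.21, 0.373). Htr2a in E46 lost its call at a fold threshold of 1.2 (adjusted p = 0.279) and with the row letter as a block. Htr1d between control lines lost it in 6 of 32 settings, among them array weights (0.23, adjusted p = 0.0536).

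The replicate numbers were not taken as pairs. Deviations of same-numbered arrays correlated by 0.24, 0.001, 0.05 and -0.11 at E46 serotonin 100 against control. They correlated by 0.37, 0.34, -0.22 and -0.06 at serotonin 1, and by -0.12, 0.33, -0.05 and 0.07 in A2/12. Arrays of different numbers correlated from -0.25 to 0.23, -0.42 to 0.29 and -0.20 to 0.30 in the same comparisons. These values do not decide whether the arrays are paired. With the replicate number as a block, 7468, 1, 8658, 4121 and 7383 genes were called (E46 at 100, E46 at 1, A2/12, difference, lines), and 3, 0, 3, 2 and 5 receptor genes, Htr5b being added between lines (0.25, adjusted p = 0.0482).

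For E46 at serotonin 100 (7451 genes and 3 receptor genes called), a fold threshold of 1.2 gave 3719 and 1, the other dose label 2 and 0, positions 5, 7 and 9 alone 3183, 3469 and 871 genes with 1, 4 and 0 receptor genes, and the row letter as a block 3932 and 1. For E46 at serotonin 1 (2 genes, 0 receptor genes), the cell line fitted alone and the fold threshold gave 0 genes, the position number as a block, median centring, leaving out the 4 arrays of low upper quartile and leaving out E46 control 3 with A2/12 control 4 gave 1, the other dose label gave 7451 with 3 receptor genes, positions 5, 7 and 9 alone gave 0, 0 and 1, and the row letter gave 6. For A2/12 (8645 and 3), the fold threshold gave 5221 and 1, and positions 5, 7 and 9 alone 4161, 7057 and 1864 genes, with 1 receptor gene at each. For the difference of responses (4142 and 2), the fold threshold gave 1877 and 1, the other dose label 7435 and 1, positions alone 886, 1593 and 73 genes with 1, 1 and 0 receptor genes, the row letter 1505 and 1, and a filter on dim genes 1 receptor gene, since Htr2b was not tested there. For control lines (7368 and 4), the fold threshold gave 3445 and 2, and positions alone 3782, 3674 and 1292 genes with 2, 3 and 1 receptor genes. The row letter could not be fitted for the lines. The single positions hold 6 or 7 arrays in 5 groups, which leaves 1 or 2 residual degrees of freedom and arms of 1 array whose spread is taken from the other groups, so their counts say nothing of stability. A fold threshold asks for larger changes. The cause of the other differences was not tested.

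Leaving out 1 array gave 6773 to 7578 genes and 2 to 3 receptor genes for E46 at 100, 1 to 284 and 0 for E46 at 1 (284 without serotonin 1 replicate 2), 8190 to 8762 and 1 to 4 for A2/12 (1 without serotonin 100 replicate 3), 3751 to 4287 and 2 to 3 for the difference, and 6810 to 7518 and 3 to 5 for lines. With the 90th percentile as background, 5 receptor genes were above it at E46 serotonin 100, 3 at E46 serotonin 1 and 7 at A2/12 serotonin 100. With the 99th percentile the counts were 1 in E46 controls, 0 at E46 serotonin 1, 0 at E46 serotonin 100, 2 at A2/12 serotonin 100 and 2 in A2/12 controls. Signal near background limits all receptor genes other than Htr2a and Htr1b in A2/12.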
